A study of Mus musculus with 11 samples.

Results

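The genes described are the ligands and receptors of axon guidance, taken by symbol: semaphorins of classes 3 to 7 with their plexin and neuropilin receptors, Slits with Robos, netrins with Unc5 receptors, and ephrins with Eph receptors. The families hold 68 of the 56980 Ensembl genes in the deposited tables, namely 20 semaphorins, 11 plexins and neuropilins, 7 Slit and Robo genes, 8 netrin and Unc5 genes, 8 ephrins and 14 Eph receptors. The families were picked with 1 value in view, the lower Ntn1 level in KO cells, so the Ntn1 difference between KO and WT is described and not tested. The cells are primary lung fibroblasts from 6 cGAS KO mice (3 females, 3 males) and 5 WT mice (2 females, 3 males), each sample being from a separate mouse as far as the series' design says. Cultures of both genotypes grew in DMEM/F12 with 15% serum, at 37 °C under low oxygen (5% O2) with 5% CO2. The sources used here give neither the mouse strain, the age nor the KO allele.

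These ligands and receptors were named for steering growing axons, and the same proteins act outside the nervous system on cell contact, migration and vessel growth. Secreted netrins signal through DCC, neogenin and the Unc5 receptors, and secreted class 3 semaphorins through neuropilins paired with plexins, with Sema3e binding Plxnd1 directly. Slits bind Robo receptors. Ephrins stay on the cell membrane, so that ephrin and Eph receptor signal at sites where cells touch. In the lung, mesenchymal cells make many of the ligands, and endothelial, epithelial and immune cells carry many of the receptors.

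Total counts per library ran from 27261958 to 48039328, and the 68 genes took 0.320% to 0.430% of them. Values are CPM, the usual count relative to library size, with the library total adjusted by the TMM method. Cgas, the targeted gene, was at 1.63 to 2.27 CPM in KO libraries and at 5.89 to 9.85 CPM in WT libraries (log2 difference −1.98, SE 0.15, edgeR adjusted p = 0.000954). All 10 fibroblast markers were tested, and their summed level was 37600 to 51900 CPM in KO and 40400 to 54000 CPM in WT libraries. RNA of leukocyte markers was present as well: the 12 leukocyte markers summed to 6410 to 11300 CPM in KO and 4700 to 6670 CPM in WT libraries, with Cd3e at 0 in every WT library and 9 of 10 tested markers having a positive log2 difference. In such mixed cultures fewer cells of a type and less RNA per cell cannot be told apart. WT female 2 stood apart, with a median correlation with the other libraries of 0.955 (0.974 to 0.988 elsewhere) and the largest share of repeat counts (10.2%).

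Promoter sequence is shown for 4 of the genes on which the results turn: Sema3e and Plxnc1, which passed the test in males, and Ntn4 and Unc5b, which lay beside Ntn1 in direction. RefSeq promoters of build GRCm38.p6 matched 59 of the 68 genes, not Ntn1 or Slit1. Each line gives the 250 bases before the start, 5′ to 3′, and capitals mark GC boxes (GGGCGG on either strand, overlapping matches joined). Sema3e lies at chr5:14025026-14025275 (plus strand), Plxnc1 at chr10:94944846-94945095 (minus strand), Ntn4 at chr10:93640799-93641048 (plus strand) and Unc5b at chr10:60831582-60831831 (minus strand).
Sema3e: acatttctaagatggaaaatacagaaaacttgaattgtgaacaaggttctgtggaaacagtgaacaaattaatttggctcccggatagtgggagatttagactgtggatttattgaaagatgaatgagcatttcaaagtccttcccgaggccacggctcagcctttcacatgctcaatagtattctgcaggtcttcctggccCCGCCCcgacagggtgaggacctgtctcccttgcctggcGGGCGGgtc
Plxnc1: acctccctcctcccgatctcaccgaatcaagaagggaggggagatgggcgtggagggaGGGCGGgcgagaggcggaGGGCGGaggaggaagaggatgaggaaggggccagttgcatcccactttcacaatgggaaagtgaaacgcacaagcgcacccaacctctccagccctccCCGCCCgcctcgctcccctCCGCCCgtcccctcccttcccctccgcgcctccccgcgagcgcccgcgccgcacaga
Ntn4: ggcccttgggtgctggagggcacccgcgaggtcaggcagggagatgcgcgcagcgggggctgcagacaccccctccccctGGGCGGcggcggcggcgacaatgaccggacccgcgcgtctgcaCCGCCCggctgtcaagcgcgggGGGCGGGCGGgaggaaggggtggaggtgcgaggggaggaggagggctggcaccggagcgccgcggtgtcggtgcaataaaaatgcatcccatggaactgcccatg
Unc5b: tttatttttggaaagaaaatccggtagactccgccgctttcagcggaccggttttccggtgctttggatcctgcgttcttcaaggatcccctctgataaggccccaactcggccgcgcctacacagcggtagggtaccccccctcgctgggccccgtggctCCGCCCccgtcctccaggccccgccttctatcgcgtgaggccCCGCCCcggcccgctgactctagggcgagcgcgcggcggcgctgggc
Sema3e and Unc5b hold 2 GC boxes each, and Plxnc1 and Ntn4 hold 4 each. The GC content of the window is 48.0% for Sema3e, 68.8% for Plxnc1, 73.2% for Ntn4 and 66.8% for Unc5b. None of the 4 windows holds a TATA box (TATAAA) or a CCAAT box (CCAAT) on either strand, which says only that these letters are not in the window. Over all 32851 RefSeq promoters 32.7% hold a GC box, 12.4% a TATA box and 33.8% a CCAAT box in the same window. Among the 75 promoters of the guidance genes these shares are 70.7%, 2.67% and 26.7%.

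Most of the families were transcribed in these cells. Of the 68 genes 59 had enough counts to be tested. The other 9 were Epha5, Epha6, Epha8, Epha10, Ephb1, Robo3, Ntn5, Unc5d and Sema5b. None of these had more than 17 counts in any library, and Epha6 had none in any. Levels of different genes are compared as CPM per kb of exon, from GENCODE vM21 exon lengths. By that measure 12 genes averaged at least 10, 29 lay between 1 and 10, 15 between 0.1 and 1, and 12 below 0.1.

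Receptors held most of the highest levels, along with Slit3. Plxnb2, a receptor of class 4 semaphorins, averaged 88.4 ± 9.54 CPM per kb (SD, n = 11). Plxna1, a signalling partner of neuropilins, averaged 52.4 ± 4.02 and Nrp2, a neuropilin, 31.4 ± 6.82 CPM per kb (SD, n = 11). Unc5b was the leading netrin receptor at 25.7 ± 10.2 CPM per kb (SD, n = 11). Of the secreted ligands Slit3 was highest at 57.1 ± 17.6, followed by Sema3c at 19.8 ± 9.89 and Slit2 at 8.20 ± 3.09 CPM per kb (SD, n = 11). The SDs, taken over KO and WT of both sexes, overlap for Plxna1 and Slit3, and for Nrp2, Unc5b and Sema3c. These genes share the 11 libraries and their levels were not tested against each other, so their order is a description only. Robo1, the leading Slit receptor here, averaged 0.897 CPM per kb.

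Among membrane-bound semaphorins Sema4d averaged 11.9 ± 3.13 and Sema4b 8.03 ± 1.83 CPM per kb (SD, n = 11). Of the ephrins Efnb1 averaged 19.9 ± 2.88, Efnb2 9.30 ± 3.97 and Efna5 5.85 ± 3.36 CPM per kb (SD, n = 11). Their leading receptors were Ephb4 at 17.8 ± 2.5, Epha2 at 6.54 ± 3.17 and Ephb3 at 4.48 ± 0.794 CPM per kb (SD, n = 11). Ntn1 averaged 1.83 ± 0.546 and Ntn4 1.65 CPM per kb, far below the Unc5b level. Dcc, the classical netrin receptor of neurons, had a count in 2 of 11 libraries only, while Neo1, its homologue neogenin, was at 68.4 to 94.6 CPM in KO and 88.8 to 126.6 CPM in WT libraries.

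Exons of 18 of the 68 genes overlap another gene in the GENCODE vM21 annotation, and the strand setting of the counting is not given in the sources used here. Among the genes described these include Plxnc1, Nrp1, Plxna1, Ephb4, Efna3, Ntn3, Unc5a and Unc5c, whose values may include reads of the partner.

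The netrin family gave the value that drew attention to these genes. Ntn1, the founding secreted netrin, had 9.33, 8.64 and 8.76 CPM in KO females and 7.34, 10.49 and 9.34 CPM in KO males. It had 10.48 and 17.2 CPM in WT females and 16.6, 13.4 and 14.7 CPM in WT males. The KO libraries are the low ones, and the groups touch at KO male 2 and WT female 1. The mean was 8.98 ± 1.04 CPM over the 6 KO libraries and 14.5 ± 2.71 CPM over the 5 WT libraries (SD), a fitted log2 difference of −0.68 (SE 0.13). The difference was −0.72 (SE 0.19) in males and −0.64 (SE 0.21) in females. Without each library in turn it stayed between −0.80 and −0.56.

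Ntn4, a laminin-related netrin of basement membranes, had 5.55, 4.07 and 3.59 CPM in KO females and 3.23, 4.35 and 4.02 CPM in KO males. It had 4.68 and 8.57 CPM in WT females and 11.3, 6.42 and 12.3 CPM in WT males. KO libraries were lower in males without overlap, and KO female 1 lay above WT female 1. The fitted log2 difference was −1.03 (SE 0.24) over both sexes, and Ntn4 did not pass the threshold (edgeR adjusted p = 0.173). Unc5b, a repulsive netrin receptor also known from vessel growth, had 181, 112.5 and 122.3 CPM in KO females and 106.6, 98.6 and 115.9 CPM in KO males. It had 153.7 and 225.2 CPM in WT females and 307.1, 139.7 and 205.4 CPM in WT males. KO female 1 was the exception among the KO libraries, and all KO males lay below all WT males. The log2 difference was −0.77 (SE 0.22), also not past the threshold (edgeR adjusted p = 0.173).

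The other tested netrin genes, given to complete the family although their values were known, lay near 0: Ntn3 was at 0.05 (SE 0.20), Unc5a at −0.08 (SE 0.15) and Unc5c at −0.14 (SE 0.48) on the log2 scale. Unc5c, a further Unc5 receptor, spread the most, with 4.14 to 12.1 CPM in KO and 1.05 to 19.4 CPM in WT libraries. Neo1 was at −0.34 (SE 0.13), not past the threshold (edgeR adjusted p = 0.225). Pericyte and smooth muscle markers had a summed level of 482 to 1310 CPM in KO and 727 to 1440 CPM in WT libraries. Of these markers 2 of 10 had a positive log2 difference, and none was at 0. In males alone the sums were 482 to 695 CPM in KO and 815 to 1440 CPM in WT, without overlap. In females they overlapped, at 698 to 1310 CPM in KO and 727 to 789 CPM in WT. The female log2 differences of Ntn1, Ntn4 and Unc5b were −0.64 (SE 0.21), −0.59 (SE 0.32) and −0.45 (SE 0.30). Their part in the netrin values was not tested.

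**Figure D1:**
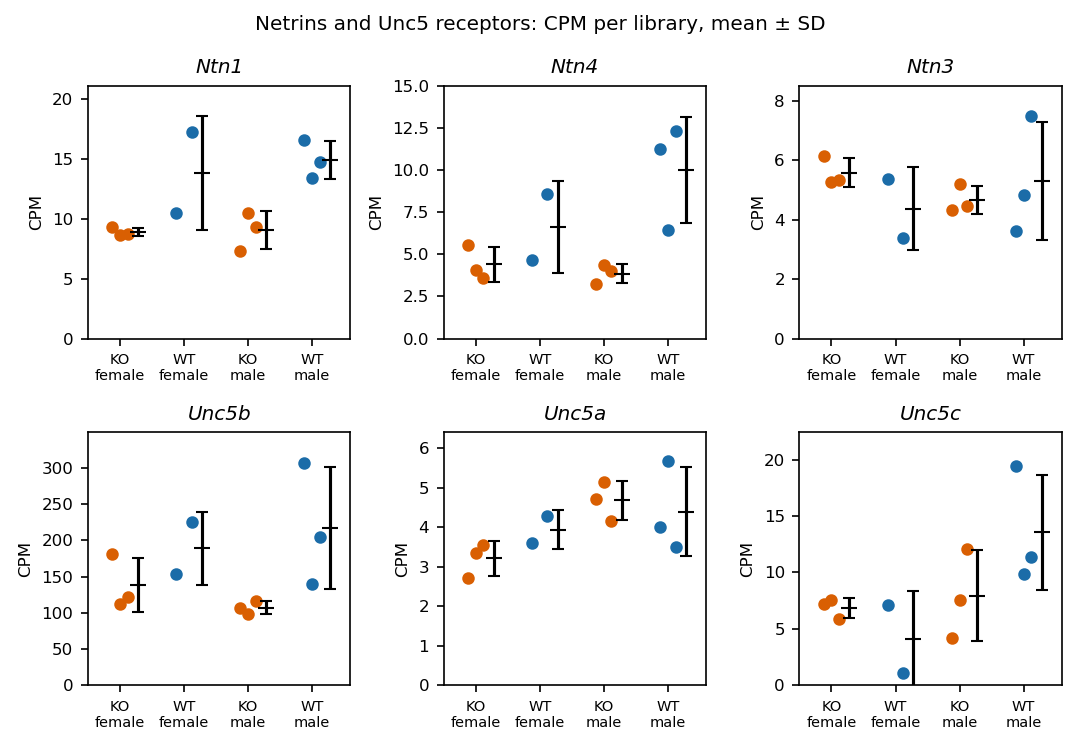
CPM (y axis, from 0) of 6 netrin and Unc5 genes in each library by genotype and sex, with 3 KO females, 2 WT females, 3 KO males and 3 WT males. Points are libraries and bars the mean ± SD, cut off at 0; Ntn1 lies at 7.34 to 10.49 CPM in KO and 10.48 to 17.2 CPM in WT libraries.

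Over both sexes 0 of the 59 tested genes passed the threshold of 0.05 for the edgeR adjusted p, where 0.00448% of all 22298 entries did (Cgas alone). Unadjusted p-values under 0.05 were found for 15 of the 58 genes other than Ntn1 (25.9%, against 17.2% of all entries), 9 higher and 6 lower in KO; over all entries 10.5% were higher and 6.64% lower. DESeq2 called 3 higher (Plxnd1, Sema6b and Slit1) and 3 lower (Ntn4, Unc5b and Sema3e) of the 51 it tested, Ntn1 left out; over all entries it called 2.38% higher and 0.867% lower. Without WT female 1, which leaves WT female 2 alone in its group with a spread assumed like that of the others, edgeR called 7 of the 58 genes and 7.06% of all entries. Leaving out any other library gave 0. Because the Ntn1 difference belongs to this contrast, nothing about the families is read from these counts. The median log2 difference of the 59 genes, Ntn1 included, was −0.037, with 27 positive (45.8%), against −0.00865 over all entries, of which 48.5% were positive.

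**Figure D2:**
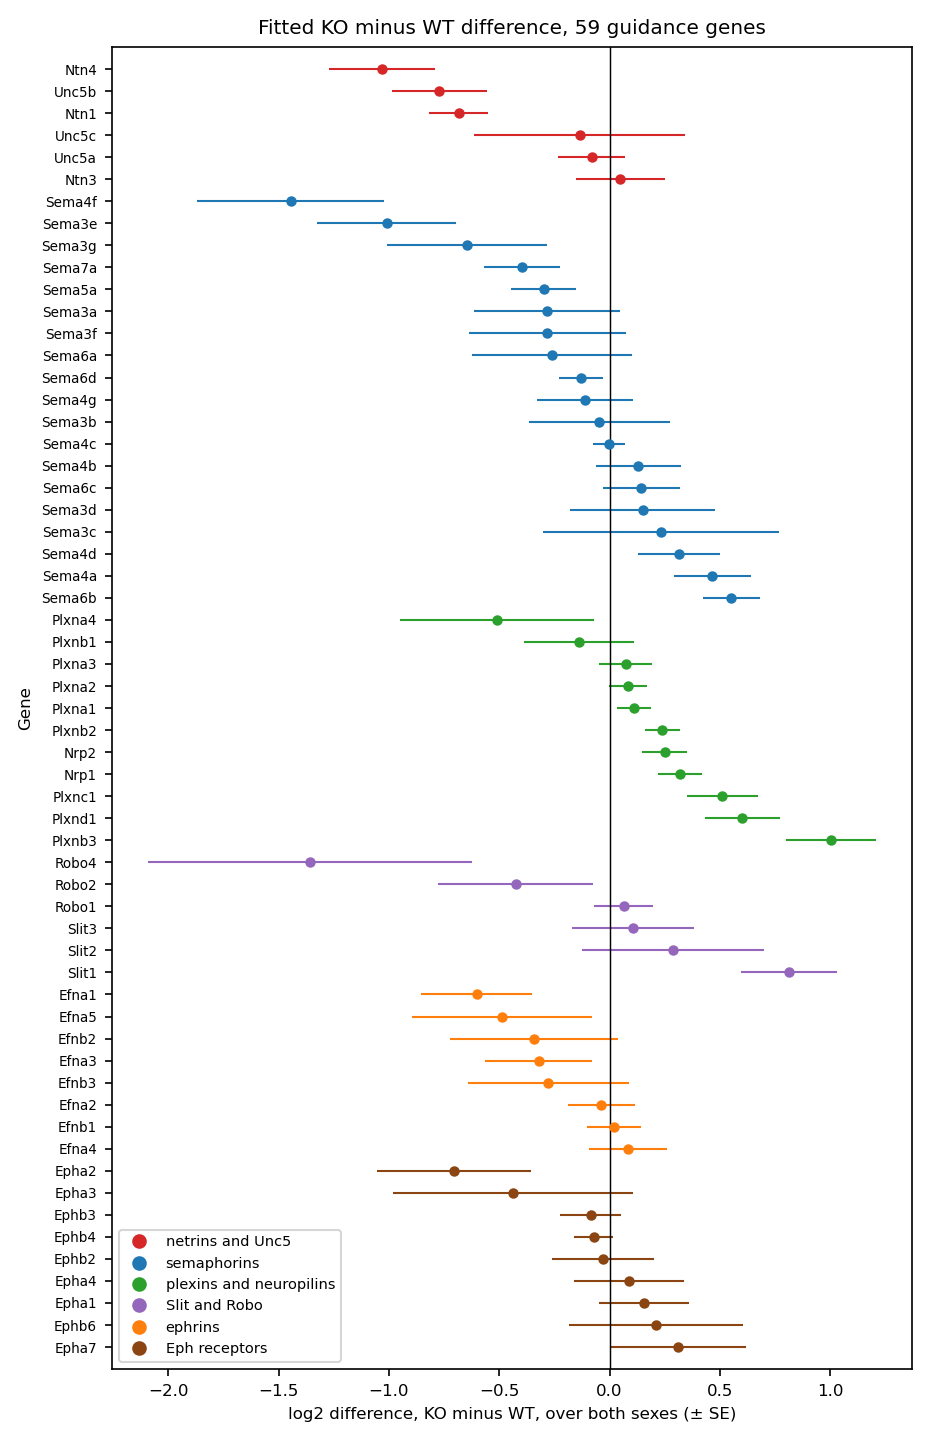
Fitted log2 difference of KO minus WT over both sexes (x axis, ± SE) for the 59 tested genes, grouped and colored by family. Plexins and neuropilins lie mostly right of 0 (9 of 11), and 5 of 6 netrin and Unc5 genes left of it, Ntn1 being 1 of the 5.

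The counts and medians of each family are a description, and no family was tested. Of the 11 plexins and neuropilins 9 had a positive log2 difference (median 0.24). Of the 5 netrin and Unc5 genes other than Ntn1, 4 were negative (median −0.14), as were 6 of 8 ephrins (median −0.30) and 12 of 19 semaphorins (median −0.11). Eph receptors were split, 4 positive and 5 negative (median −0.03), and of the 6 Slit and Robo genes 4 were positive (median 0.08).

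The KO and WT libraries did not overlap at all for 2 of the 59 genes, Plxnb2 and Plxnb3, both higher in KO (3.39%, against 1.36% of all entries, 1.01% higher and 0.354% lower). Within males 8 genes were higher and 14 lower without overlap (37.3% in all, against 30.9%, 16.9% and 13.9% of all entries for either, higher and lower). Within females 13 were higher and 5 lower (30.5% in all, against 19.7%, 11.2% and 8.46%). Ntn1 is among the lower genes in both sexes. Plxnb3, a class B plexin best known from glia and neurons, had 1.09, 1.02 and 1.5 CPM in KO females and 1.85, 1.61 and 1.28 CPM in KO males. It had 0.873 and 0.501 CPM in WT females and 0.704, 0.865 and 0.557 CPM in WT males. The gap is clear but the level is low, and the log2 difference of 1.00 (SE 0.20) did not pass the threshold (edgeR adjusted p = 0.173). Plxnb2 had 717.3, 722.5 and 705.8 CPM in KO females and 821.1, 763.7 and 662.1 CPM in KO males. It had 660.4 and 564 CPM in WT females and 598.9, 660.9 and 630.2 CPM in WT males. KO male 3 and WT male 2 nearly meet, and the groups overlap under scaling by DESeq2 size factors or over genes alone, which instead separate Ntn1. Without KO female 1 the count without overlap was 7, and without WT female 1 it was 5. Fewer libraries separate more easily, and the share of all entries was not counted there, so nothing is read from these counts. The log2 difference of Plxnb2 was 0.24 (SE 0.08, edgeR adjusted p = 0.191).

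Plxnd1, the receptor of Sema3e, had 121.7, 170.8 and 148.6 CPM in KO females and 245.7, 220.9 and 168.2 CPM in KO males. It had 122.7 and 123.8 CPM in WT females and 94.2, 147.8 and 101.8 CPM in WT males. All KO males lay above all WT males, and in females the groups overlapped. The log2 difference over both sexes was 0.60 (SE 0.17, edgeR adjusted p = 0.173). Nrp1, a receptor of class 3 semaphorins and of VEGF, was at 258.8 to 375.8 CPM in KO and 223.8 to 281.7 CPM in WT libraries, with a log2 difference of 0.32 (SE 0.10, edgeR adjusted p = 0.177). Summed leukocyte markers were at 6410 to 11300 CPM in KO and 4700 to 6670 CPM in WT libraries. Their part in the Plxnb2, Plxnb3, Plxnd1 and Nrp1 values, and in those of Sema6b below, was not tested.

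Sema6b, a transmembrane ligand of class A plexins, had 21.4, 24.9 and 27.6 CPM in KO females and 32.9, 35.2 and 29.9 CPM in KO males. It had 21.5 and 14.9 CPM in WT females and 20.6, 25.1 and 16.9 CPM in WT males. Its log2 difference was 0.55 (SE 0.13, edgeR adjusted p = 0.173), with no overlap in males and KO female 1 within the WT range in females. Sema4f, a membrane-bound semaphorin, was at 0.111 to 0.453 CPM in KO and 0.243 to 2.00 CPM in WT libraries. Its log2 difference of −1.45 (SE 0.42, edgeR adjusted p = 0.173) was −0.76 without WT female 2, which holds the 2.00 CPM.

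The remaining families had wider spreads. Slit1, a secreted Robo ligand, was at 6.38 ± 1.17 CPM over the 6 KO libraries and 3.72 ± 1.77 CPM over the 5 WT libraries (SD), a log2 difference of 0.81 (SE 0.22, edgeR adjusted p = 0.173). Robo4, the endothelial Robo, was at 0.0406 to 1.60 CPM in KO and 0.388 to 3.12 CPM in WT libraries (log2 difference −1.36, SE 0.74, edgeR adjusted p = 0.356), and −0.74 without WT male 2, its highest library. Of the 10 endothelial markers 3 had a positive log2 difference and none was at 0, with sums of 55.7 to 110 CPM in KO and 41.0 to 95.2 CPM in WT libraries. WT male 2 was also highest for Pecam1 (11.4 CPM), Cdh5 (17.8 CPM), Tie1, Tek, Egfl7, Cldn5 and Erg. For Vwf, Kdr and Emcn a KO library was highest, with Vwf at 28 CPM in WT male 2 and 66.8 CPM in KO male 1. The part of the endothelial markers in the Robo4 value was not tested. Efna1, an ephrin of epithelium and endothelium, was at 1.38 to 3.31 CPM in KO and 1.48 to 3.91 CPM in WT libraries (log2 difference −0.60, SE 0.25, edgeR adjusted p = 0.256). Efna3 had a log2 difference of −0.32 (SE 0.24, edgeR adjusted p = 0.513), which was −0.19 without KO male 2 and −0.58 without KO male 3. Epha2, a receptor of type A ephrins, was at 11.9 to 54.4 CPM in KO and 24.5 to 57.7 CPM in WT libraries (log2 difference −0.71, SE 0.35, edgeR adjusted p = 0.321), and −0.45 without WT male 3. Epha7 had a log2 difference of 0.31 (SE 0.31, edgeR adjusted p = 0.628), which was 0.02 without WT female 2 and 0.49 without KO male 1. In all of these the libraries of KO and WT overlapped.

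**Figure D3:**
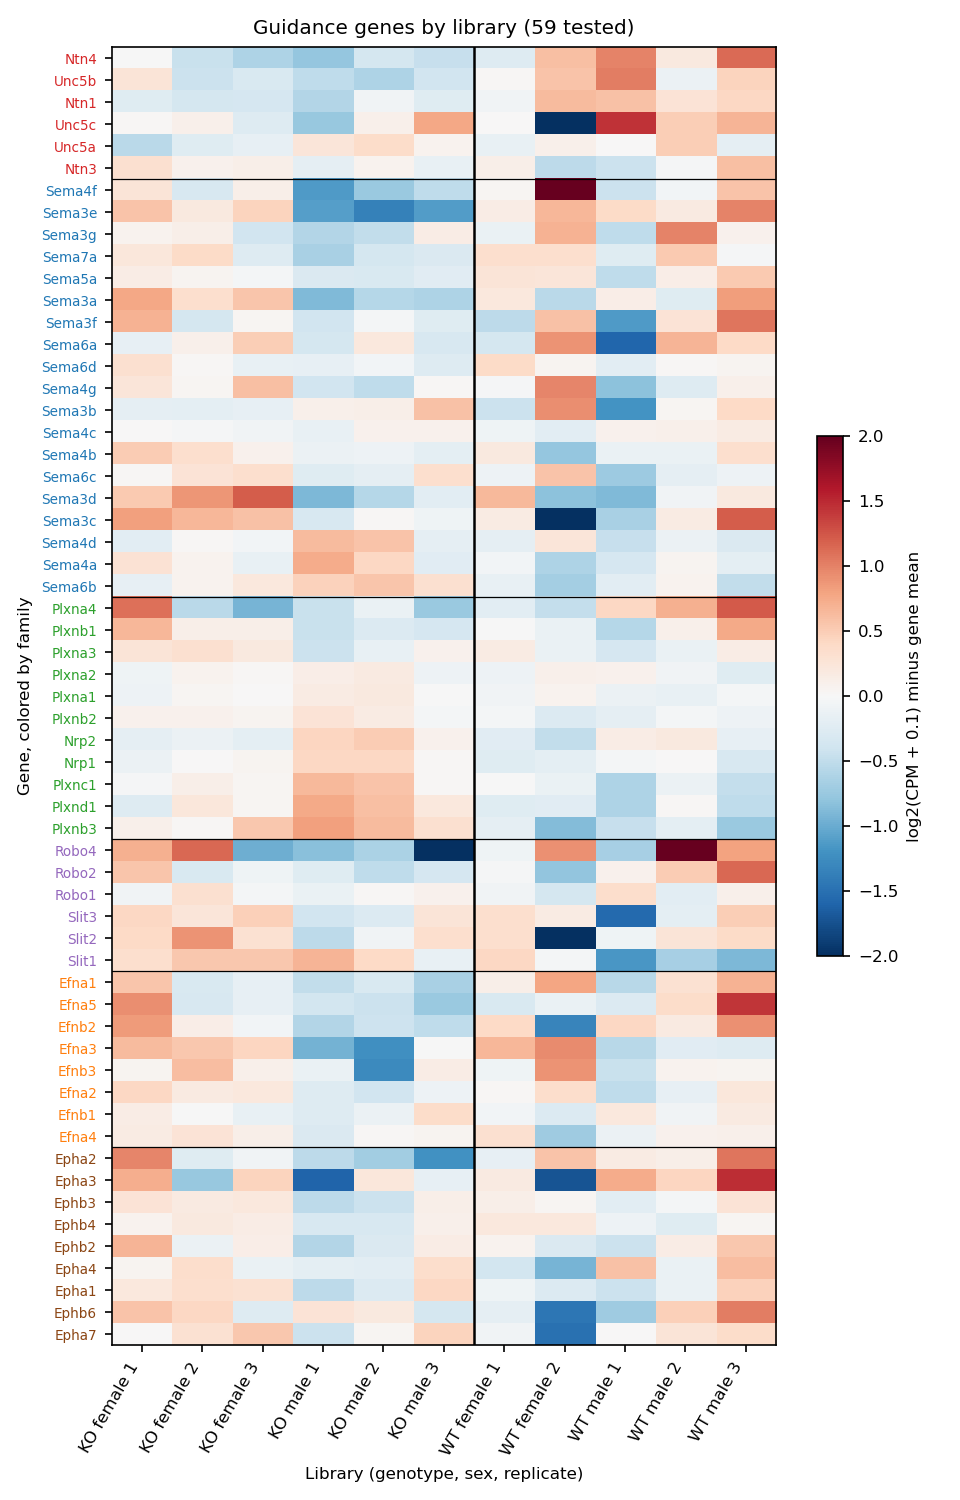
Each tested gene (rows, colored by family) in each library (columns, KO left of the line and WT right), as log2(CPM + 0.1) minus the mean of the gene. The KO males are low for Sema3e, and KO males 1 and 2 are the highest for Plxnd1 and Plxnc1. WT female 2 stands out in both directions for several genes.

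In males, 3 of the 59 genes passed the threshold, 2 higher and 1 lower in KO (5.08%, against 1.22% of all 22960 entries, 0.719% higher and 0.501% lower). Unadjusted p-values under 0.05 were found for 21 of the 58 genes other than Ntn1 (36.2%, against 22.1%). Sema3e, the secreted ligand of Plxnd1, fell. It had 4.63, 3.88 and 4.59 CPM in KO males against 13.2, 11.5 and 20.02 CPM in WT males, and the KO males all lay below the WT males. The log2 difference was −1.77 (SE 0.22, edgeR adjusted p = 0.0391). In females Sema3e had 15.0, 11.5 and 13.8 CPM in KO against 11.2 and 16.0 CPM in WT (log2 difference −0.02, SE 0.24).

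Slit1 rose in males, to 7.67, 6.29 and 4.31 CPM in KO against 2.06, 2.99 and 2.52 CPM in WT, without overlap. The log2 difference was 1.27 (SE 0.23, edgeR adjusted p = 0.0478). In females it had 6.07, 6.96 and 7.002 CPM in KO against 6.36 and 4.66 CPM in WT. Plxnc1, the receptor of Sema7a and abundant on myeloid cells, also rose in males, to 226.7, 214.5 and 146.8 CPM in KO against 93.5, 132.6 and 103.4 CPM in WT. The log2 difference was 0.84 (SE 0.17, edgeR adjusted p = 0.0478). In females its levels were 141.3, 156.7 and 147.6 CPM in KO and 142.8 and 131.2 CPM in WT.

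Just outside the threshold were Ntn4 (log2 difference −1.37, SE 0.29, edgeR adjusted p = 0.050004), Plxnd1 (0.88, SE 0.20, 0.0512) and Plxnb3 (1.14, SE 0.27, 0.0558) in males. The 3 calls lie close to the threshold and depend on which libraries share the fit. All 3 were lost without KO female 2 or 3, without KO male 1 or 2, without WT male 1 or 3, and with the males fitted alone (edgeR adjusted p = 0.0693 for Sema3e, 0.0741 for Slit1 and 0.0757 for Plxnc1). The calls of Slit1 and Plxnc1 were also lost without KO female 1 and with DESeq2 size factors. Ntn1 aside, there were 7 calls without KO male 3 and 8 without WT male 2, where 4.84% and 4.19% of all entries were called. Without WT female 1 or WT female 2 there were 10, where 7.84% and 8.87% of all entries were called. DESeq2 called 6 higher and 10 lower in males, against 6.37% and 3.94% of all entries. Leukocyte markers moved in the same libraries, with sums of 6550 to 11300 CPM in KO males and 4700 to 6270 CPM in WT males. KO males 1 and 2 had the 2 highest values of Plxnc1, and also of Plxnd1, Plxnb2, Plxnb3, Plxna1, Nrp1, Nrp2, Sema4d and Sema6b, but not of Slit1. The same 2 libraries were highest for the markers Lyz2 (6250 and 5150 CPM), Ptprc, Cd68, Mrc1, Adgre1 and Itgam. That was not so for Csf1r, Tyrobp, Itgax, Cx3cr1, Cd3e and Cd79a, with Itgax highest in WT female 2 (148 CPM). Of the pericyte and smooth muscle markers, 2 of 10 had a positive difference over both sexes, with the male sums given beside the netrins. Epithelial markers summed to 10.3 to 13.4 CPM in KO males and 22.3 to 47.2 CPM in WT males, with 0 of 6 tested ones positive over both sexes. The part of these 3 marker lists in the male differences, or in the plexin, neuropilin and semaphorin values named beside them, was not tested.

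**Figure D4:**
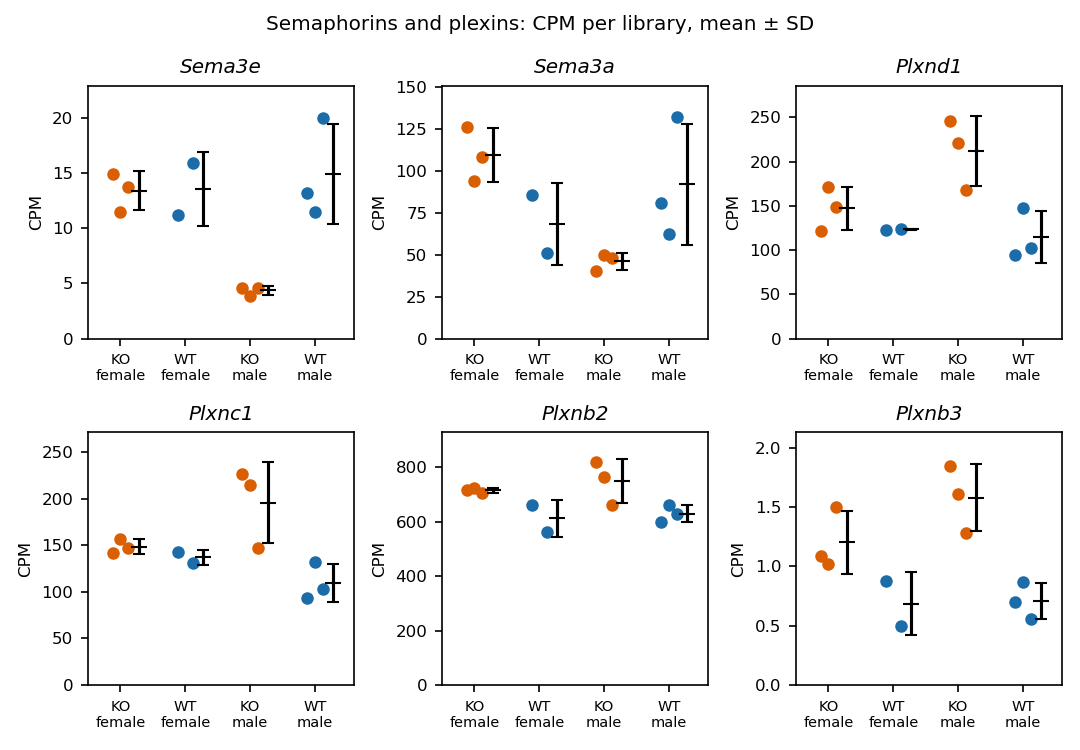
CPM (y axis, from 0) of 2 class 3 semaphorins and 4 plexins in each library by genotype and sex, 3 libraries per group and 2 for WT females. Points are libraries and bars the mean ± SD; Sema3e lies at 3.88 to 4.63 CPM in KO males and at 11.2 CPM or more in every other library.

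In females 0 of the 59 genes passed in edgeR, where 0.00436% of all entries did. Unadjusted p-values under 0.05 were found for 6 of the 58 genes other than Ntn1 (10.3%, against 6.63% of all entries), 5 higher and 1 lower, where 2.46% of all entries were higher and 4.17% lower. Without WT female 1, which leaves WT female 2 alone in its group, edgeR called 9 beside Ntn1, and 15.3% of all entries. DESeq2 called 0 genes, against 0.00261% of all entries higher and 0.0131% lower. The signs are given for each sex as a description, Ntn1 included. In males 17 of 59 log2 differences were positive (28.8%, against 47.7% of all entries; median −0.25), with 0 of 9 Eph receptors and 0 of 8 ephrins among them. In females 39 of 59 were positive (66.1%, against 53.8%; median 0.16), including 8 of 9 Eph receptors and 6 of 6 Slit and Robo genes. Plexins and neuropilins were mostly positive in both sexes (8 and 10 of 11), and semaphorins mostly negative in both (13 and 11 of 19). Over all entries the medians were −0.019 in males and 0.025 in females. A negative difference in males with a positive one in females was found for 28 of the 59 genes (47.5%, against 26.6% of all entries), and the reverse for 6 (10.2%, against 20.6%).

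The difference between the sexes was tested directly. Because female and male libraries carry differently styled names, sex and library set cannot be told apart in this test. That limit also holds for the signs by sex and for calls found in males only. The test passed for 0 of the 59 genes in edgeR and for 0% of all entries. Unadjusted p-values under 0.05 were found for 13 genes (22.0%, against 12.9%), 3 with the difference higher in males and 10 with it lower (6.96% and 5.93% of all entries). DESeq2 called 2, Sema3a and Sema3e, both lower in males, where 0.552% of all entries were higher and 0.562% lower. Sema3a, the secreted ligand of Nrp1 and plexins A, had 125.9, 93.7 and 108.3 CPM in KO females against 85.4 and 51.0 CPM in WT females. It had 40.1, 49.7 and 47.9 CPM in KO males against 80.9, 62.4 and 132.1 CPM in WT males. The groups did not overlap in either sex, KO being higher in females and lower in males. The male minus female log2 difference was −1.68 (SE 0.40, edgeR adjusted p = 0.307) for Sema3a and −1.75 (SE 0.33, edgeR adjusted p = 0.307) for Sema3e.

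Epha4, an Eph receptor that binds ephrins of both types, had 11.8, 14.5 and 10.3 CPM in KO females against 8.76 and 5.91 CPM in WT females. It had 9.88, 9.78 and 14.5 CPM in KO males against 17.1, 10.3 and 17.4 CPM in WT males, a male minus female log2 difference of −1.13 (SE 0.37, edgeR adjusted p = 0.308). For Ntn1 that difference was −0.08 (SE 0.28). Without WT female 1 edgeR called 10 genes in the test between the sexes (10.1% of all entries). In that fit WT female 2 is the only WT female, and its Sema3c (19.8 CPM), Slit2 (39.2 CPM) and Unc5c (1.05 CPM) are the lowest of all 11 libraries.

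**Figure D5:**
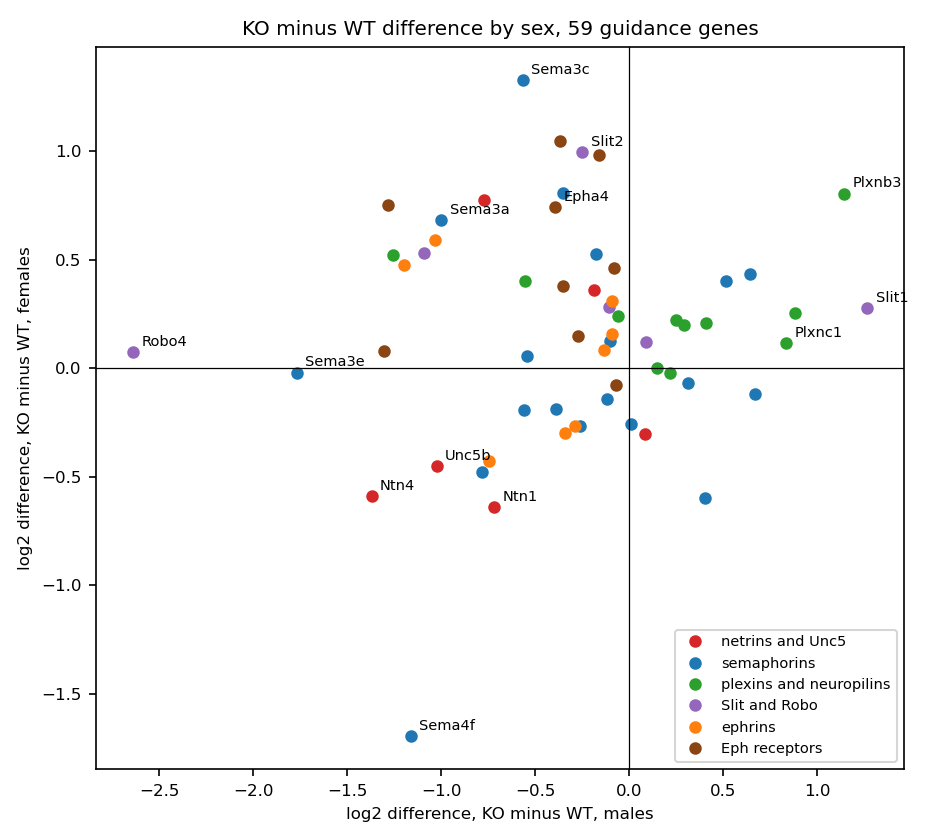
Log2 difference of KO minus WT in males (x axis) against that in females (y axis) for the 59 tested genes, colored by family. The upper left field, lower in KO males and higher in KO females, holds 28 genes, while Ntn1, Ntn4 and Unc5b lie below 0 on both axes.

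Between males and females, over both genotypes, 2 of 59 genes passed, 1 higher and 1 lower in males (3.39%, against 4.82% of all entries, 2.64% higher and 2.18% lower). Efna3, a type A ephrin, was lower in males: 0.289, 0.221 and 0.650 CPM in KO males against 1.06, 0.997 and 0.917 CPM in KO females, and 0.413, 0.541 and 0.530 CPM in WT males against 1.09 and 1.35 CPM in WT females. All males lay below all females (log2 difference −1.33, SE 0.24, edgeR adjusted p = 0.0213). Nrp2 was higher in males, at 491.5, 519.9 and 388.1 CPM in KO males against 321.4, 337.3 and 318.8 CPM in KO females, and 401.9, 418.3 and 324.1 CPM in WT males against 309.8 and 258.2 CPM in WT females. The male and female libraries overlapped across genotypes only at WT male 3 (log2 difference 0.48, SE 0.10, edgeR adjusted p = 0.0359). Ephb4, a receptor of Efnb2 known from veins, was at −0.31 (SE 0.09, edgeR adjusted p = 0.0613) and did not pass. Female and male libraries carry differently styled names, so sex and library set cannot be told apart. The Efna3 call was lost without KO female 1, 2 or 3, or without KO male 2 or WT male 2, where the edgeR adjusted p reached 0.0562 at most. The Nrp2 call was lost without 8 of the 11 libraries, being kept without KO male 3, WT female 1 or WT male 3 (edgeR adjusted p = 0.0133 to 0.0987 over the 11). Without WT female 1 there were 6 calls and without WT male 3 there were 4, where 14.7% and 8% of all entries were called. DESeq2 called 1 gene higher and 7 lower in males, against 6.32% and 6.31% of all entries.

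Co-receptors, other ligands and the intracellular effectors of the same pathways were read from a list of 72 genes, of which 66 were tested over both sexes. In edgeR 0 passed, and 8 were higher and 9 lower at an unadjusted p under 0.05 (25.8% in all, 12.1% and 13.6%). Over all entries these shares were 17.2%, 10.5% and 6.64%. DESeq2 called 3 higher and 1 lower of the 60 it tested (5% and 1.67%, against 2.38% and 0.867% of all entries). The median log2 difference was 0.012, with 34 positive and 32 negative. Dpysl2, a cytosolic mediator of semaphorin signalling, was at 451 ± 50.3 CPM over the 6 KO libraries and 339.8 ± 50.8 CPM over the 5 WT libraries (SD), a log2 difference of 0.43 (SE 0.10, edgeR adjusted p = 0.173). Evl, an actin regulator of the Ena/VASP family, was at 60.2 to 78.4 CPM in KO and 49.8 to 60.5 CPM in WT libraries (log2 difference 0.32, SE 0.08, edgeR adjusted p = 0.173). Vav3, a signalling protein downstream of Eph receptors, was at 33.4 to 57.2 CPM in KO and 17.9 to 42.3 CPM in WT libraries (log2 difference 0.60, SE 0.17, edgeR adjusted p = 0.173). Without WT female 1 edgeR called 7 of the list and 7.06% of all entries.

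In males 5 of 67 tested genes of that list passed, 1 higher and 4 lower (7.46%, against 1.22% of all entries). Srgap2, a Slit-Robo GTPase-activating protein, rose, with a log2 difference of 0.47. Mical2 and Mical3, oxidoreductases that act on actin downstream of plexins, were at −1.26 and −0.68. Ptk2, the focal adhesion kinase, was at −0.60 and Myo10, a filopodial myosin that carries netrin receptors, at −0.71. The edgeR adjusted p was 0.0478 for each of these 5, which are named because they passed. In females the log2 differences were 0.05 for Srgap2, 0.05 for Mical2, 0.18 for Mical3, 0.08 for Ptk2 and 0.42 for Myo10. The part of the marker lists in these male differences was not tested. All 5 calls were lost when KO female 2, either of KO males 1 and 2, or WT male 1 was left out, and with the males fitted alone, where no entry of any kind was called.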

How the data were processed

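RNA-seq libraries, made after ribosomal depletion, were measured in primary lung fibroblasts of 11 mice. The deposited values are raw counts per gene and repeat element that the authors made with Trim Galore and STAR on GRCm39, per the submitters' processing notes; versions, annotation, counting program and strand setting are not given in the sources used here. Here edgeR 4.0.16 (R 4.3.3) quasi-likelihood tests ran on all entries passing filterByExpr (minimum count 10), with TMM scaling and Benjamini-Hochberg adjustment at 0.05. One model held sex and genotype (8 residual degrees of freedom), another a mean per genotype and sex (7). SE is the log2 difference divided by the square root of F. DESeq2 1.42.0, other scalings, no filter, a replicate block and each library left out were alternatives. The test over both sexes was also run on simulated counts, and the outcome is not given here. Replicates differed by more than counting noise (chi-square per degree of freedom 12 to 144). Symbols, exon lengths and overlaps came from GENCODE vM21, matched by gene ID. The p-values measure the spread between mice. Named genes were Ntn1, the 3 highest by level and the 2 with the smallest p in each family, genes whose groups do not overlap, the smallest p-values of the sex tests, and all calls. Nrp1, Ntn3, Unc5a, Unc5c, Neo1 and Dcc meet none of these rules and were described with their values known. The members and lists were chosen with earlier results of these data known.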

Additional observations from a re-analysis of the deposited data

Results flagged for a closer look

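In 6 of 62 groups of KO or WT libraries checked at both ends, a single library lay far above the rest by the gap to its nearest neighbour. For normally distributed values chance flags either end in about 1 in 20 groups. The groups here pool both sexes and the genes share libraries, so that rate is only a rough guide. KO female 1 held 4 of the 6. Its Epha2 level was 54.4 CPM, with the next KO library at 26.3 CPM. Its Efna1 level was 3.31 CPM, with the next at 1.98 CPM. Its Efna5 level was 40.5 CPM, with the next at 18.9 CPM, and its Unc5b level was 181 CPM, with the next at 122 CPM. WT male 3 had 57.2 CPM of Efna5, with the next WT library at 27.2 CPM. WT female 2 had 2.00 CPM of Sema4f, with the next WT library at 0.583 CPM. KO female 1 also had the highest summed mesothelial markers among KO libraries (124 CPM, next 45.3 CPM) and pericyte and smooth muscle markers (1310 CPM, next 739 CPM), and WT male 3 the highest of both among WT libraries (157 and 1440 CPM). Their part in these values was not tested.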

How the results depend on the processing

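The direction of the 26 log2 differences, of 23 genes, that were refitted was the same in each alternative run that covered them. Not every run covered all of them. DESeq2 gave no adjusted p over both sexes for Robo4, Efna3, Plxnb3 and Sema4f, which were left out there. The replicate block held no comparison of males with females, and the fits of a single sex held few of the differences. Other genes named in the text were not refitted. With each library left out in turn, the genes called (Ntn1 included) ranged over both sexes from 0 to 8 (0.0044% to 7.06% of all entries), in males from 0 to 11 (0% to 8.87%), in females from 0 to 10 (0% to 15.3%), in the test between the sexes from 0 to 10 (0% to 10.1%) and between males and females from 0 to 6 (0.507% to 14.7%). In the co-receptor and effector list they ranged from 0 to 7. The highest values in females and between the sexes arose without WT female 1. Genes whose KO and WT libraries do not overlap ranged from 2 to 7, and were 21 with males alone and 18 with females alone. The share of all entries was not counted in these runs. In the main scaling it was 30.9% in males and 19.7% in females, against 1.36% over both sexes. With Ntn1 included, DESeq2 called 7 genes over both sexes (3.25% of all entries) and 17 in males (10.3%). Without Ntn1, whose difference is described and not tested, these counts were 6 and 16. DESeq2 also called 2 between the sexes (1.11%), 8 between males and females (12.6%) and 4 of the co-receptor and effector list. In males DESeq2 size factors gave 1 call (0.0348% of all entries), the replicate block 0 (0%) and males fitted alone 0 (0%). No filter on low counts gave 11 in males with Ntn1 included (2.82%), and 10 without it. The causes were not tested. Whether replicate numbers pair the samples could not be decided. The correlation of deviations from the group mean was −0.213 to 0.152 for equal numbers and −0.402 to 0.363 for unequal ones. In groups of 2 or 3 libraries such deviations are tied to each other. The replicate block gave an Ntn1 difference of −0.67. Genes under about 1 CPM rest on few counts, and with 2 WT females the female contrasts are the least precise.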
